A study of Drosophila melanogaster with 4 samples.

Results

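On chromosome arm 2L of Drosophila melanogaster, 524 regions were called as bound by GFP-tagged Lola-PI in wandering larvae of the third instar. They were all rows of the authors' peak list whose chromosome is 2L, out of 2639 peaks in the whole list. The 3 peaks on 2LHet, the sequence that holds heterochromatin of the same arm, were not members. The arms 3L, with 605 peaks, and 3R, with 698 peaks, served for comparison. The peaks came from chromatin immunoprecipitation followed by sequencing (ChIP-seq), in which DNA cross-linked to a protein is recovered with an antibody and sequenced. A rabbit polyclonal antibody against GFP was used for the 2 ChIP libraries, and the other 2 were sequenced from input chromatin without precipitation. All 4 came from the strain lola-RI-GFP, with the genotype PBac{y[+]-attP-3B}VK00033 and a transgene that is the lola-RI genomic coding region. The protocol in the labels names y; bw cn sp flies reared at 25 °C, and larvae cross-linked in 1.8% formaldehyde for 15 min. The sex of the larvae is given as unknown, and the state of the endogenous lola gene is not stated in the labels. No untagged strain was analysed here.

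The gene lola (longitudinals lacking) encodes a family of transcription factors that share an N-terminal BTB domain, through which such proteins dimerise, and mostly differ in their C-terminal zinc fingers, which bind DNA. The isoforms are made by alternative splicing and are known for roles in axon growth and guidance and in the identity of neurons. In FlyBase names R marks a transcript and P its protein, so that lola-PI is the protein of the transcript lola-RI. The lola gene lies on arm 2R and the VK00033 docking site on arm 3L, so that neither is on 2L. Position 1 of 2L is at the telomere, and the high coordinates approach the centromere and its heterochromatin.

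The deposited list is the only measurement. It gives the start, end and score of each peak on FlyBase release 5, and none of these is given separately for a library. The depth is therefore unknown, and no value below has a replicate error. Every score is the authors' own, with no stated scale, and was used only to rank and describe peaks. Whole larvae mix many tissues, and a site bound in few cells cannot be told apart from a site bound weakly in many. The intervals below cover counting error only. They treat peaks as independent, which crowded peaks are not, and no test was made between arms.

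Lola-PI peaks were spread over the whole of 2L, from 67066 to 22967239, but unevenly. The arm held 22.8 peaks per Mb (95% exact Poisson interval 20.9 to 24.9), against 24.7 on 3L (22.7 to 26.7) and 25.0 on 3R (23.2 to 27.0). The density on 2L was 0.92 times that of 3L and 3R together (95% exact interval 0.83 to 1.02), an interval that includes equal density. Peaks covered 176 kb, or 0.77% of 2L up to the end of the last peak, against 0.82% of 3L and 0.84% of 3R. The 22 complete 1-Mb bins of 2L held 23.0 ± 10.5 peaks (mean ± SD over bins). The 24 bins of 3L held 25.1 ± 10.7 peaks and the 27 bins of 3R held 24.9 ± 8.69.

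**Figure D1:**
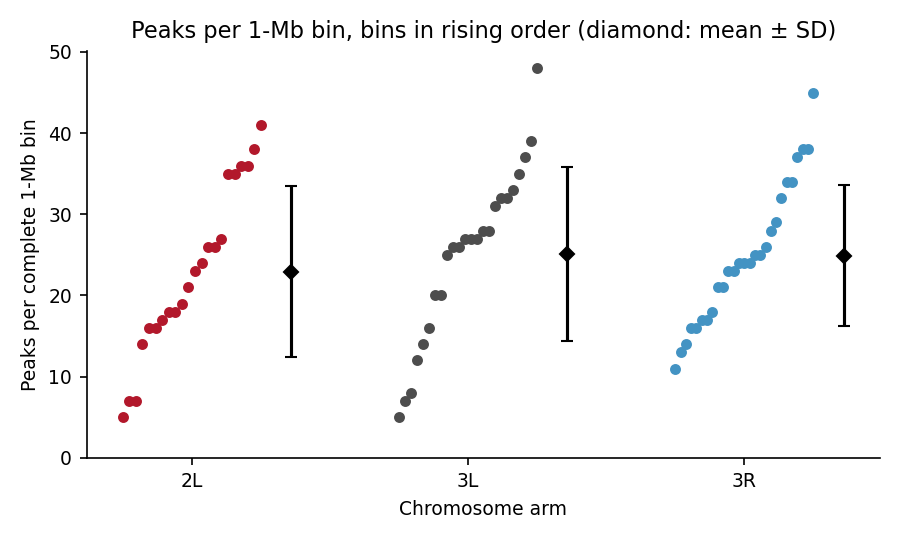
Number of peaks in each complete 1-Mb bin of 2L, 3L and 3R, with the bins of an arm in rising order of count from left to right. Points are bins and the diamond with its bar is the mean ± SD over bins; 2L runs from 5 to 41 peaks per bin, 3L from 5 to 48 and 3R from 11 to 45, with means of 23.0, 25.1 and 24.9.

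Along 2L the counts changed sharply between neighbouring bins. The fullest bin, from 10000001 to 11000000, held 41 peaks, and the next one towards the centromere held 7. The emptiest, from 17000001 to 18000000, held 5. In all, 6 of the 22 complete bins held at least 35 peaks each and together 221 of the 524. Another 3 bins held under 10 peaks each and together 19. Bins with at least 35 peaks also occurred on 3L and 3R, where the fullest held 48 and 45. The 6 full bins of 2L began at position 1, 2000001, 5000001, 6000001, 8000001 and 10000001, so all lay on the telomere side. When the arm was cut at its middle, 11.5 Mb from position 1, the telomere side held 316 peaks (60.3%) and the centromere side 208 (39.7%). On 3L the side with the lower coordinates held 293 peaks (48.4%) and the other side 312, and on 3R it held 373 (53.4%) and the other side 325. The low coordinates are the telomere side of 3L but the centromere side of 3R. The 2 sides of 2L had similar peaks, with a median score of 13.2 on the telomere side and 12.8 on the centromere side, and median widths of 309 and 287 bp.

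Scores varied along the arm as well. The 24 peaks between 13000001 and 14000000 had a median score of 11.02, and none of them reached 17.0, the upper quartile of the whole list. Between 21000001 and 22000000, 1 of 21 peaks reached it, with a score of 45.9. The last, incomplete bin, from 22000001, held 19 peaks with a median score of 17.4, and 10 of them (52.6%) reached that quartile. This was the highest share on 2L among bins with at least 10 peaks. The highest share was 37.0% on 3L and 50.0% on 3R under the same limit.

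Most peaks on 2L had a close neighbour. Of the 524 peaks, 337 (64.3%, 95% exact binomial interval 60.0 to 68.4%) had another peak midpoint within 5 kb, and these are called crowded below. The share was 62.6% (58.7 to 66.5%) on 3L and 65.3% (61.7 to 68.9%) on 3R. At the shortest range 2L had the lowest share of the 3 arms. A neighbour within 1 kb was found for 123 peaks of 2L (23.5%, interval 19.9 to 27.3%), against 25.6% (22.2 to 29.3%) on 3L and 30.5% (27.1 to 34.1%) on 3R. From each midpoint to the next, the median distance on 2L was 9257 bp (quartiles 1810 and 42476 bp), against 10010 bp on 3L and 10011 bp on 3R. The quartiles were 1750 and 39059 bp on 3L and 1357 and 50774 bp on 3R. The upper quartile of 2L thus lay between those of the other arms. The smallest distance between facing edges was 52 bp on 2L, 53 bp on 3L and 50 bp on 3R, so no adjoining peaks on these arms lay closer than that.

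**Figure D2:**
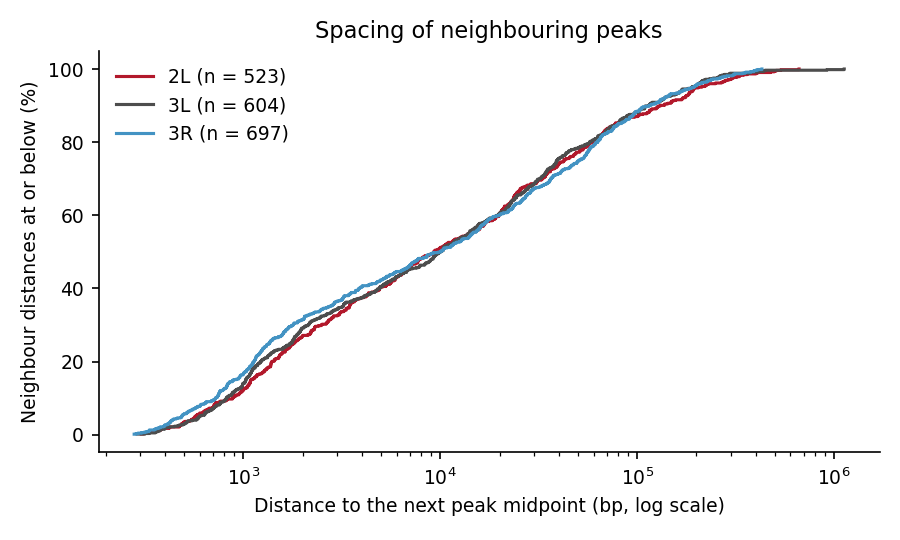
Cumulative share of distances between neighbouring peak midpoints (bp, log scale) on 2L, 3L and 3R, with 523, 604 and 697 distances. Each line is 1 arm; the medians nearly coincide at 9257, 10010 and 10011 bp, while 3R lies above 2L at distances of about 1 kb.

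Crowded peaks formed short chains, defined as runs of peaks in which each midpoint lies within 5 kb of the next. On 2L there were 80 chains of 2 peaks, 25 of 3, 13 of 4 and 8 of 5 or more, and the other 187 peaks stood alone on this scale. The 8 longest chains held 50 peaks (on 3L 15 such chains held 85 and on 3R 15 held 88). In 79 of the 126 chains of 2L (62.7%, 95% exact binomial interval 53.6 to 71.1%) the peak with the highest score was also the widest. The share was 60.4% (51.6 to 68.8%) on 3L and 58.4% (50.4 to 66.1%) on 3R. Among the 80 chains of 2 peaks on 2L it was 68.8% (57.4 to 78.7%), against 63.2% (51.3 to 73.9%) on 3L and 69.9% (59.5 to 79.0%) on 3R. Width and score come from the same call of a peak. The pooled chains differ in length, and the share expected without any relation falls with length. It was not computed.

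The longest chain on 2L held 9 peaks over 11.8 kb, from 5975030 to 5986799. It held a high peak near its end on the centromere side, and lower peaks beside it. The high peak, from 5986023 to 5986398, had a score of 40.7 and a width of 376 bp. The peak next to it, 171 bp away from edge to edge, scored 12.1. The other 7 scored between 7.42 and 14.6, and the widest of the chain, 550 bp from 5982998 to 5983547, scored 12.9. The chain from 4997158 to 5010606 held 6 peaks over 13.4 kb, with the highest at 65.8, another from 5010036 to 5010606 at 23.4 and the other 4 between 12.6 and 16.3. In contrast, the chain from 13365857 to 13378222 held 8 peaks over 12.4 kb and none of them scored above 14.3. The chain from 2194532 to 2202037 was more even, with 5 peaks that scored between 14.3 and 20.4, of which 3 reached the upper quartile of the list.

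On a wider scale, the 5 fullest stretches of 100 kb held 69 peaks, 13.2% of those on 2L. Measured from the first to the last peak of each, they took up 454 kb, or 1.98% of the arm. The rest of each 100 kb is not counted in that share. These stretches were picked for their counts. The fullest, from 5975030 to 6074688, held 18 peaks in 4 groups separated by over 5 kb. Its groups had 9, 3, 2 and 4 peaks, and the longest distance inside it was 47.4 kb. All 18 peaks were crowded, and their scores had a median of 13.1. The next, from 4968182 to 5060595, held 15 peaks, with scores from 8.19 to 65.8 and a median of 13.2. Its low end was the peak from 5058862 to 5059106 and its high end the peak from 5001196 to 5001713, the highest of the arm.

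The third, from 10334144 to 10432093, held 13 peaks with a median score of 14.8 and a median width of 404 bp. Its scores ran from 9.46, in the peak from 10394726 to 10394955, to 29.6, in the peak from 10422354 to 10422879. The fourth, from 2131076 to 2227426, held 12 peaks with a median score of 14.7 and the widest peaks of the 5 stretches (median 440 bp). Its scores stayed between 9.53, from 2221267 to 2221488, and 20.4, from 2199700 to 2200181. The fifth, from 10201181 to 10269195, held 11 peaks with a median score of 10.9 and a median width of 244 bp, both the lowest of the 5 stretches. Its highest score was 26.7, from 10201181 to 10201784, and its lowest 7.88, from 10249411 to 10249648. This place was shared by 4 stretches of 11 peaks, and the other 3 lay from 12428175 to 12519648 (median score 16.5), from 13291069 to 13387062 (median 10.9) and from 14997438 to 15067796 (median 12.5). The stretches with 13 and 11 peaks from 10334144 and from 10201181 lie in the fullest 1-Mb bin. The median score was thus not the same in all full stretches, and ran from 10.9 to 14.8 among the 5. Not all their peaks were crowded. The second stretch had 13 crowded peaks of 15 and the third 11 of 13, with a longest inner distance of 52.8 kb. The fourth had 7 of 12, and in the fifth all 11 were crowded. On 3L and 3R the 5 fullest stretches held between 13 and 17 peaks and between 12 and 17 peaks.

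**Figure D3:**
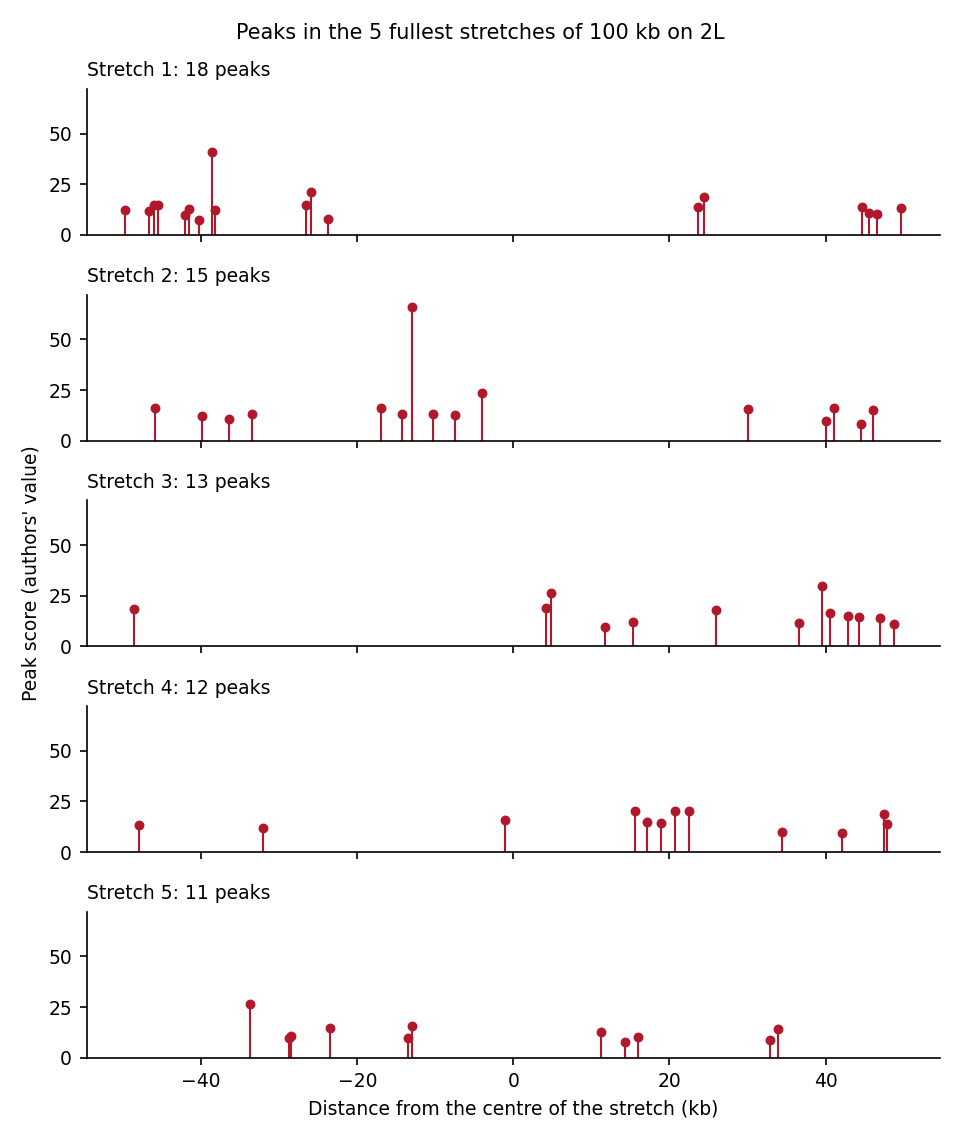
Score of each peak (vertical axis, the authors' value) against its distance from the centre of the stretch (kb) in the 5 fullest stretches of 100 kb on 2L, numbered from the fullest. Each stem is 1 peak; the first and second stretches each have a peak that stands far above the rest, at 40.7 and 65.8, and the fourth has none above 20.4.

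Crowding had its counterpart in long empty runs. The 5 longest distances on 2L all lay between 14490265 and 18137446. The longest left 663 kb without a peak, from 17474100 to 18137446. The others left 536 kb (15750913 to 16286970), 507 kb (14490265 to 14997438), 496 kb (16887660 to 17383502) and 475.4 kb (15271142 to 15746569). The longest empty run was 1125 kb on 3L and 429 kb on 3R. The shortest of the 5 longest was 411 kb on 3L and 390 kb on 3R.

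The sparse region of 3.65 Mb bounded by these runs was chosen for its low count, so its density is a description. It held 40 peaks, or 10.97 per Mb, against 25.1 per Mb on the rest of 2L. The 5 empty runs took 2.68 Mb of it. The 40 peaks between them stood in 4 groups, and 29 of them (72.5%) were crowded, against 64.3% of all peaks on 2L. The first group had 13 peaks over 274 kb with a median score of 10.6, and 11 of them made up the full stretch from 14997438 to 15067796. The second had 4 peaks within 4.35 kb, from 15746569 to 15750913, with an empty run on either side. The third had 18 peaks over 601 kb and a highest score of 26.3. The fourth had 5 peaks over 90.6 kb and a highest score of 31.2. The median score in the region was 11.7, against 13.2 on the rest of the arm.

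On a finer scale, empty bins made up a larger share of 2L than of 3L or 3R. Of 229 complete 100-kb bins, 86 (37.6%, 95% exact binomial interval 31.3 to 44.2%) held no peak. The share was 29.8% (24.1 to 35.9%) on 3L and 28.4% (23.2 to 34.1%) on 3R. The intervals overlap, and because empty bins adjoin one another they are too narrow. Part of the empty bins on 2L lie in the sparse region described above, whose 5 empty runs took 2.68 Mb. The share of empty bins outside that region was not computed. Bins with 6 peaks or more made up 13.5% of the bins on 2L and held 47.5% of the peaks, against 44.7% of the peaks on 3L and 43.7% on 3R. The variance over bins was 3.37 times the mean on 2L, 3.16 times on 3L and 3.10 times on 3R. Distances over 300 kb numbered 14 of 523 on 2L, 7 of 604 on 3L and 13 of 697 on 3R. Those over 200 kb numbered 27, 27 and 30 of the same totals. As a share of all distances, 2L was the highest at both limits, while 3L and 3R changed places. The 5 longest distances on 2L, all within the sparse region, are among its 14 over 300 kb. The counts are small, and a difference between the arms was not tested.

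Few peaks on 2L were isolated. There were 26 (4.96%, 95% exact binomial interval 3.27 to 7.19%) with no other peak within 50 kb, against 39 on 3L (6.45%, 4.62 to 8.71%) and 52 on 3R (7.45%, 5.61 to 9.65%). The most isolated lay from 1049244 to 1049707, with its nearest neighbour 149 kb away, and had a score of 25.6 and a width of 464 bp. Its neighbour scored 7.46. This was also the highest score of all 26. The next were the peaks from 14489975 to 14490265 (score 10.9, neighbour 128 kb away), from 2364520 to 2364802 (score 16.5, 127 kb), from 12692610 to 12692848 (score 15.96, 107 kb) and from 14233789 to 14234094 (score 11.1, 100.5 kb). These 5 were the only peaks on 2L with no neighbour within 100 kb, against 11 on 3L and 5 on 3R. The peak from 14489975 to 14490265 borders the sparse region.

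Isolated peaks on 2L had a lower median score than crowded ones, at similar widths. Their median score was 11.4 (quartiles 10.6 and 13.96), and the maximum was 25.6. The 337 crowded peaks had a median of 13.2 (quartiles 10.7 and 16.5), and the 161 peaks in between also had a median of 13.2. Of the isolated peaks 3 (11.5%, 95% exact binomial interval 2.45 to 30.2%) reached the upper quartile of the list, against 80 of the crowded ones (23.7%, 19.3 to 28.6%), and the intervals overlap. On the other arms the isolated median was 12.4 on 3L and 11.5 on 3R, and the crowded median 13.2 and 13.4. On 3L 13 of 39 isolated peaks (33.3%, 19.1 to 50.2%) reached the upper quartile and on 3R 11 of 52 (21.2%, 11.1 to 34.7%), both above the share on 2L, with overlapping intervals. Whether the arms differ in this was not tested. Median widths on 2L were 300 bp for isolated peaks and 291 bp for crowded peaks.

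**Figure D4:**
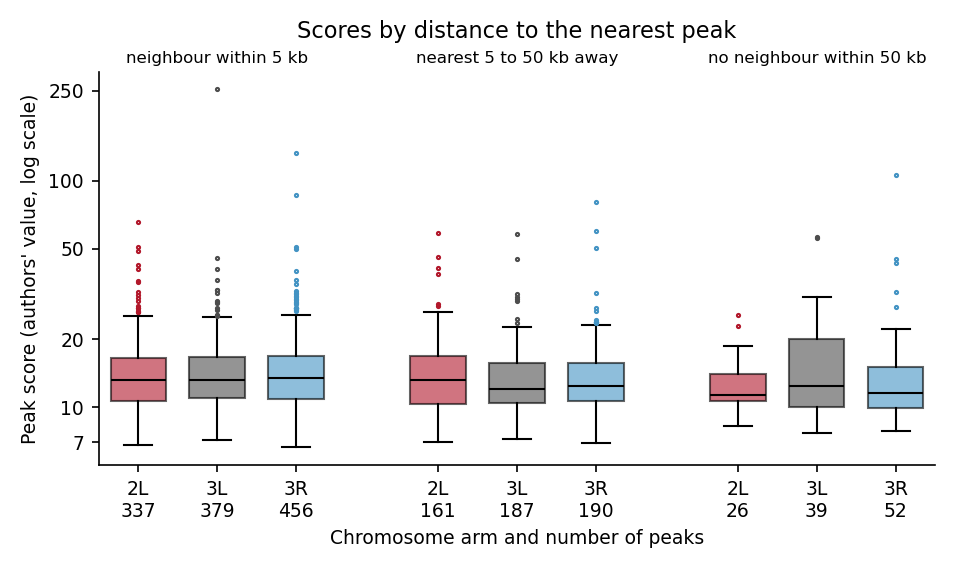
Scores (authors' value, log scale) of peaks on 2L, 3L and 3R by distance to the nearest other peak, with the number of peaks under each box. Boxes span the quartiles with the median as a line, whiskers reach the furthest peak within 1.5 times the box length and dots are peaks beyond; isolated peaks on 2L have a median of 11.4 and none above 25.6, while crowded peaks on 2L reach 65.8.

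The median score of the 524 peaks was 13.1 (quartiles 10.6 and 16.5, lowest 6.85). The median was 12.9 on 3L and 13.1 on 3R. The median of 2L was 0.15 above that of 3L and 3R together, and the difference was -0.06 against 3R alone. The share of peaks at or above the upper quartile of the list was 23.3% on 2L (95% exact binomial interval 19.7 to 27.1%), 23.3% on 3L and 22.8% on 3R. The share of peaks that scored 30 or more was 2.67% on 2L, 2.64% on 3L and 3.01% on 3R. The arms lay further apart only in single peaks at the very top of the scale. The highest score was 65.8 on 2L, 253 on 3L and 132 on 3R. The tenth highest was 36.2 among 524 peaks on 2L, 33.0 among 605 on 3L and 43.2 among 698 on 3R.

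The highest peak on 2L, from 5001196 to 5001713, had a score of 65.8 and a width of 518 bp. The second lay from 6455240 to 6456274, scored 58.9 and was the widest peak of the arm at 1035 bp. The third lay among the last peaks of the arm on the centromere side, from 22121604 to 22121935, with a score of 50.9 in only 332 bp. These were the 3 peaks of 2L above a score of 50. They were followed by the peaks from 2009793 to 2010645 (score 49.0), from 21658440 to 21659117 (score 45.9), from 12045468 to 12046251 (score 42.5) and from 2758594 to 2759590 (score 41.2). The last 3 of the 10 were the peak of the longest chain, from 5986023 to 5986398 (score 40.7), and those from 22736320 to 22736752 (score 38.6) and from 19165395 to 19166292 (score 36.2). None of the 10 was isolated, against 4.96% of all peaks on 2L, and 6 had a neighbour within 5 kb, against 64.3%. Both counts are near what these shares of the arm would give. The nearest neighbours of the 10 scored from 10.1 to 17.3, with a median of 12.1, against 13.1 for all peaks on 2L.

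Peaks on 2L were 201 to 1035 bp wide (median 298 bp, quartiles 237 and 394 bp). The median was 290 bp on 3L and 294 bp on 3R, and the widest peaks there reached 1140 and 1443 bp. The minimum of 201 bp, shared by the whole list, was held by 16 peaks on 2L. Score went up with width (Spearman's rho = 0.46 over 524 peaks, against 0.41 over 605 on 3L and 0.44 over 698 on 3R). This is a description, since both values come from 1 call per peak. The median width was 244 bp for the 102 peaks that scored below 10 and 283 bp for the 242 that scored from 10 to under 15. It was 325 bp for the 112 from 15 to under 20, 415 bp for the 54 from 20 to under 30 and 526 bp for the 14 peaks of 30 or more. The share of crowded peaks did not follow this order, at 60.8%, 66.5%, 63.4%, 61.1% and 71.4%.

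**Figure D5:**
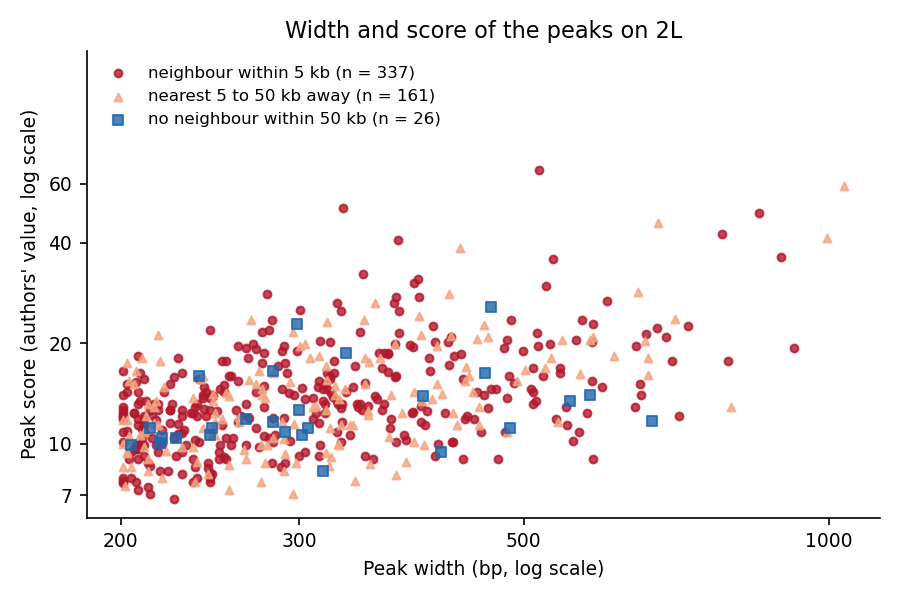
Width (bp, log scale) and score (authors' value, log scale) of all 524 peaks on 2L, marked by distance to the nearest other peak. Each point is 1 peak; scores climb with width (Spearman's rho = 0.46), and the 26 isolated peaks, with a median score of 11.4 and none above 25.6, run from 205 to 670 bp in width.

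Width and score did not rank the same peaks first throughout. Of the 10 widest peaks on 2L, 5 were among the 10 highest, namely those from 6455240, 2758594, 19165395, 2009793 and 12045468. The other 5 widest had much lower scores. They lay from 12434915 to 12435838 (924 bp, score 19.3), from 4463944 to 4464745 (802 bp, score 12.9), from 22128940 to 22129734 (795 bp, score 17.7), from 12483210 to 12483935 (726 bp, score 22.5) and from 5799685 to 5800396 (712 bp, score 12.1). At the far ends of the relation, 7 of the 171 peaks narrower than 250 bp reached the upper quartile of the list, against 23.3% of all peaks on 2L. They were led by the peak from 19414370 to 19414614 (245 bp, score 21.9). There were 97 peaks from 400 to under 600 bp and 27 of 600 bp or more. Conversely, 9 of the 97 scored below the lower quartile of the list, 10.6. None of the 27 did, and the lowest score among them was 11.7. The lower quartile of all peaks on 2L was also 10.6, so low scores were less common among these wide peaks. The widest of the 9 lay from 11806590 to 11807174 (585 bp, score 8.98), with its nearest neighbour, which scored 27.4, 2291 bp away.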

How the data were processed

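The authors deposited 1 peak list; its source column reads MACS and its coordinates are on FlyBase release 5, per the file headers. Per the submitters' processing notes, the tools were BWA, MACS2 and CASAVA (versions 1.7.0.2 and 1.7.0.3) and the build BDGP5, with no role or order given. The authors' deposited score has no stated scale, and other deposited values are each peak's start and end (1-based). The threshold, and whether libraries were pooled, are not given in the sources used here. Samples were grouped by their titles.

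Spacing used peak midpoints. Arm length was the end of the last peak. Stretches of 100 kb started at a peak and did not overlap. Peaks were named by fixed rules: the 10 highest, the 10 widest, the 5 fullest stretches with their highest and lowest peak, the 5 longest distances, the 5 most isolated peaks, the longest chain, and the fullest and emptiest bins. Other peaks named were chosen after their values were seen. The members and rules were chosen with earlier results of these data known. The gene table at hand is on release 6, so no peak was assigned to a gene and no sequence was read. Computation used scipy 1.17.1, pandas 2.3.3 and numpy 2.4.6 under Python 3.11.15, and matplotlib 3.10.9 for plots, and the functions were tested on simulated data.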

Additional observations from a re-analysis of the deposited data

How the results depend on the processing

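No paired analysis was possible because values per library are absent from the peak list used here, and no replicate could be left out for the same reason. Of 30 values recomputed under alternatives, 19 stayed within the counting interval of the main value or within 1.5 times its count, and 11 moved. Some of the 19 are a changed measure. The fullest stretch held 12 peaks in 50 kb and 24 in 200 kb, against 18 in 100 kb. The median distance between facing edges was 9022 bp. The density of 2L relative to 3L and 3R stayed between 0.92 and 0.94. The differences in median score and width stayed within intervals built from the 2L median alone, without the error of 3L and 3R. The rank correlation also stayed within its interval. Leaving out the narrowest peaks or merging kept 508 or 472 of the 524 peaks on 2L, so these values had little room to move. The median score of 2L was above that of 3L and 3R by 0.15, equal to it without the narrowest peaks or after merging, and below that of 3R, so no order holds. The measures of spacing depend on how many peaks are kept. The median distance of 9257 bp was 27703 bp among peaks at or above the median score of the list, 84405 bp among those that reached the upper quartile, and 14278 bp with peaks within 500 bp merged. The share of crowded peaks, 64.3%, was 46.4% at 2 kb, 75.4% at 10 kb, 42.7% among peaks at or above the median score and 54.0% after merging. The 26 isolated peaks numbered 55 at 30 kb, 5 at 100 kb and 42 among peaks at or above the median score. The fullest stretch held 9 peaks in place of 18 at or above the median score. A higher score limit leaves 260 or 122 of the 524 peaks, and merging leaves 472, so distances lengthen by construction. The unknown depth limits any statement about stretches without a peak.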
